A study of Mus musculus with 12 samples.

Results

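The genes described here encode proteins that bind the 3′ untranslated regions (3′UTRs) of cytokine mRNAs and set how long those mRNAs last or how well they are translated. They were taken by symbol as Zfp36, Zfp36l1, Zc3h12a, Zc3h12c, Rc3h1, Rc3h2, Arid5a, Elavl1, Hnrnpd and Tia1, and are 10 of the 38739 symbols in the expression table. All 10 were among the 11887 genes tested. The Il6 mRNA, which several of them are known to bind, was set beside them in the same samples.

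RNA was sequenced from mouse bone marrow-derived macrophages, which are macrophages grown from marrow precursors in culture, in 12 samples, 3 for each of 4 groups. The groups were untreated wild-type (WT UT), lipopolysaccharide-stimulated wild-type (WT LPS), untreated cGAS-knockout (cGAS-/- UT) and lipopolysaccharide-stimulated cGAS-knockout (cGAS-/- LPS) cells. Lipopolysaccharide (LPS) is the outer membrane component of Gram-negative bacteria, here from E. coli, and cGAS is the sensor of cytosolic DNA that makes cyclic GMP-AMP. The labels give LPS at 100 ng/mL for 1 h and the methods a higher dose for 24 h, so the duration behind every LPS value below is unsettled. According to the methods the mice were male and 8 weeks old, the WT animals were purchased C57BL/6J and the cGAS-/- animals, which lack the gene in all cells, came from another laboratory on the same background, so genotype and colony cannot be told apart. The 3 samples of each group are described in a legend as technical replicates, and the labels name no separate animals, so the p-values measure only the spread between these samples.

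In macrophages, many cytokine mRNAs carry AU-rich elements (AREs), repeats of the pentamer ATTTA, and some carry short stem-loops with a loop of pyrimidine, purine and pyrimidine. Zfp36 (tristetraprolin) and Zfp36l1 bind AREs and recruit the deadenylase complex, Zc3h12a (Regnase-1) and its relative Zc3h12c cleave stem-loop mRNAs, and Rc3h1 and Rc3h2 (Roquin-1 and Roquin-2) bind the same stem-loops and pass the mRNA to deadenylation. Arid5a protects Il6 mRNA from Regnase-1, Elavl1 (HuR) stabilises ARE mRNAs, Hnrnpd (AUF1) mostly speeds their decay, and Tia1 holds back their translation.

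The values are abundances in TPM, transcripts scaled to a fixed total per library, as the mean over those that share a symbol. The unit is an inference from the numbers themselves and hides the number of transcripts behind a mean, so levels are compared here between samples and not between genes. The samples summed to between 447189 and 503156 TPM in 11 cases and to 709802 in WT LPS replicate 3, where the ferritin pseudogene Fth-ps3 held 31.7% and protein-coding genes 18.5% of the total, against 39.7% to 54.4% protein-coding elsewhere. The WT LPS samples lay 98.1 to 155 apart on the log2 scale over the tested genes (Euclidean distance), compared with 48.9 to 59.7 within the other groups. Cgas, the targeted gene, was at 1.19 to 3.25 TPM in the 6 WT samples and at 0.0703 to 0.291 TPM in the 6 cGAS-/- samples. Of 8 macrophage markers 7 were at 1 TPM or more in every sample, with summed levels of 17020 to 34335 TPM, of which Lyz2 made up 15701 to 33426 TPM. Cd68 was at 973 to 1046 TPM in the 6 untreated samples and at 153 to 506 TPM in the 6 LPS samples, and Mrc1 at 23.5 to 85.2 TPM and at 0.857 to 10.9 TPM. The summed levels of 5 B cell markers were 108 to 134 TPM in WT UT, 30.6 to 44.9 in WT LPS, 19.9 to 28.5 in cGAS-/- UT and 3.04 to 8.84 in cGAS-/- LPS. The extraction text of the labels names neutrophils, and the sums of 7 neutrophil markers were 139 to 213, 35.5 to 353, 52.9 to 126 and 46.4 to 59.9 TPM in the same order. The sums over all samples were 1.56 to 37.4 TPM for 5 erythroid markers, 0.146 to 1.14 for 7 T and NK cell markers and 0.29 to 2.23 for 5 dendritic cell markers. In these bulk samples fewer cells of a type and less RNA per cell cannot be told apart, and the part of these other cell types in the results below was not tested.

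The elements that link these proteins to Il6, and to one another, can be read in the 3′UTRs of the reference. In the GENCODE canonical transcript (GRCm39), the Il6 3′UTR is 427 bases long and holds 6 ATTTA pentamers, or 14.1 per kb, against a median of 1.33 per kb over the 7900 tested genes with an annotated 3′UTR. The hairpin search described below found 0 hairpins in it. That search counts only perfectly paired stems, so a stem-loop with a mismatch or bulge would be missed. The heptamer TATTTAT, the core that the Zfp36 family prefers, was found in 32.3% of those 3′UTRs and ATTTA in 72.4% (sense strand of the transcript, with ATTTA lying within TATTTAT). The Il6 heptamer is shown because it is the kind of site through which the first group of proteins acts. It lies at chr5:30224728-30224752 on the + strand, with TATTTAT in capitals.
Il6: tatgattgaTATTTATtatttttat

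Some of the regulators carry the heptamer themselves. The 3′UTR of Zfp36 (774 bases, - strand) holds 3 heptamers, at chr7:28076393-28076417, chr7:28076378-28076402 and chr7:28076353-28076377, and that of Zfp36l1 (1835 bases, - strand) also holds 3, at chr12:80155198-80155222, chr12:80155157-80155181 and chr12:80154943-80154967. They are shown in that order because the proteins of these genes bind this heptamer, again in capitals.
Zfp36 site a: tgggcccttTATTTATgacgacttt
Zfp36 site b: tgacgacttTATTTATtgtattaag
Zfp36 site c: attttatagTATTTATatatattgg
Zfp36l1 site a: atcaaaacgTATTTATtgccaaact
Zfp36l1 site b: ttttgttcaTATTTATcgggatgac
Zfp36l1 site c: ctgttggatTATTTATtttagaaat

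Zc3h12a had 3 ATTTA and no TATTTAT in its 3′UTR of 856 bases, while Zc3h12c had 15 ATTTA and 3 TATTTAT in 5833 bases. Zc3h12a held 3 perfect hairpins of at least 5 base pairs with a loop of 3 bases (pyrimidine, purine, pyrimidine), and Zc3h12c held 1, against 26% of all 3′UTRs with at least 1. They lie on the - strand at chr4:125012862-125012876, chr4:125012680-125012694 and chr4:125012455-125012471 for Zc3h12a, and at chr9:52024769-52024783 for Zc3h12c. The loop is in capitals, and the sequences are shown because this is the shape that Regnase-1 and the Roquins recognise.
Zc3h12a hairpin a: gatacaCATtgtatc
Zc3h12a hairpin b: aggcacCATgtgcct
Zc3h12a hairpin c: atttaaaTATtttaaat
Zc3h12c hairpin: ctgaacCATgttcag

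Among the other regulators, Rc3h1 held 20 ATTTA, 2 TATTTAT and 4 hairpins in 7181 bases, Rc3h2 27, 4 and 2 in 6336 bases, and Elavl1 20, 9 and 0 in 7024 bases. Hnrnpd held 17, 1 and 1 in 6093 bases, Tia1 8, 1 and 1 in 3038 bases, and Arid5a 2, 0 and 0 in 3826 bases. These 3′UTRs are longer than the median of 1323 bases, and longer sequences hold more matches. The matches are descriptions of letters, and binding at them was not measured.

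Levels were tested with limma on log2(TPM + 1) over all 12 samples, and a gene passed at a Benjamini-Hochberg adjusted p under 0.05 over the 11887 genes. With LPS in cGAS-/- cells 2 of the 10 regulators rose and 1 fell, where 13.8% of all tested genes passed. With LPS in WT cells none rose and 1 fell, where 27.6% of all genes passed. That count was 5 with TMM scaling (trimmed mean of M values), where 2375 of all genes passed, and 4 with quantile normalization, where 2445 passed. Between genotypes none passed, neither with LPS, where 2.36% of all genes passed, nor in untreated cells, where 1.83% of all genes passed. The difference of the LPS effects between genotypes (the interaction) passed for 0 of the 10, with 0.9% of all genes passing. The median log2 fold change of the 10 with LPS was -0.07 in cGAS-/- and -0.06 in WT cells, against -0.20 and -0.46 over all tested genes. With TMM it was 0.04 and 0.33 and with quantile normalization 0.09 and 0.29, so its sign depends on the scaling. TMM scaling moved the median of all tested genes by 0.37 with LPS in WT, by 0.18 with LPS in cGAS-/- cells and by -0.16 between genotypes with LPS. Both comparisons of genotypes and both LPS comparisons share samples with one another.

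**Figure D1:**
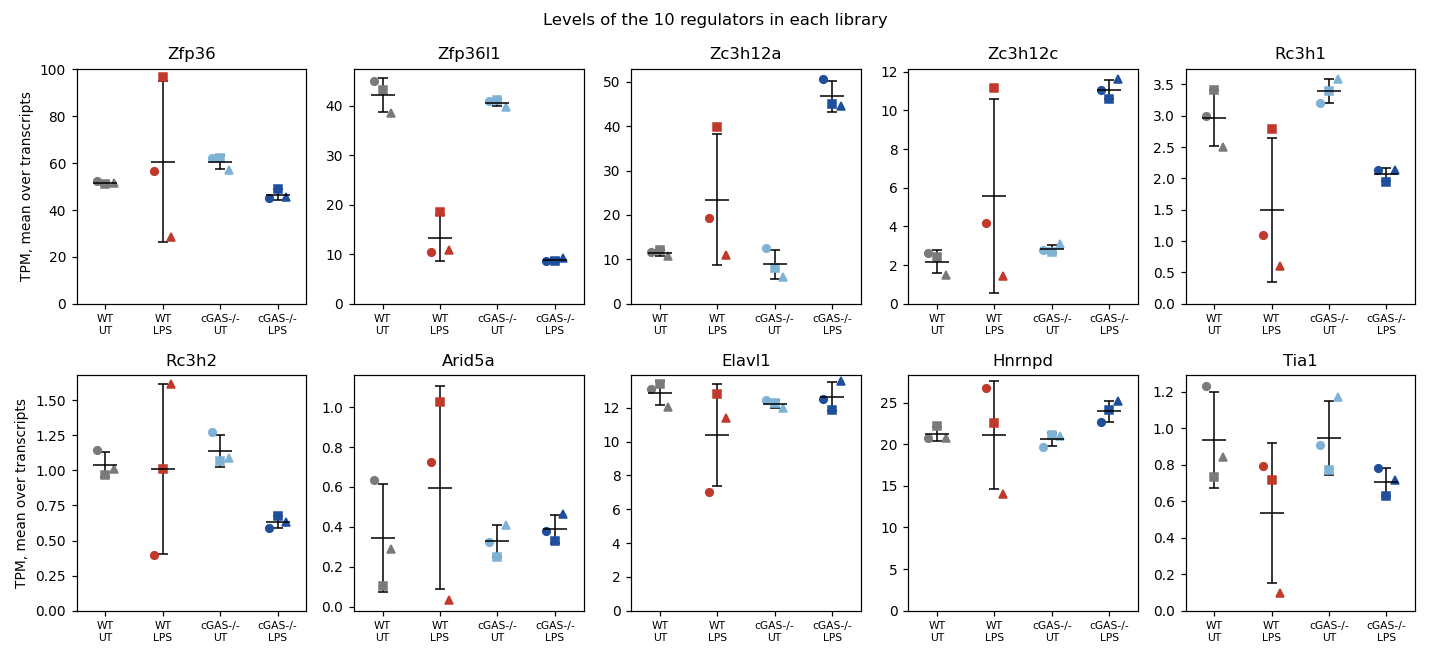
Level of each of the 10 regulators (TPM, mean over transcripts, vertical axis) in the 12 samples by group. Circles, squares and triangles are replicates 1, 2 and 3, and bars are the mean ± SD of 3 samples. Zc3h12a and Zc3h12c stand high in all 3 cGAS-/- LPS samples and vary widely in WT LPS, and Zfp36l1 is low in all 6 LPS samples.

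Of the ARE-binding destabilisers, Zfp36l1 fell with LPS in both genotypes. Zfp36l1 (chr12:80154528-80160006, GRCm39) was at 45.1, 43.2 and 38.4 TPM in WT UT and at 10.5, 18.6 and 10.8 TPM in WT LPS. It was at 41, 41.1 and 39.8 TPM in cGAS-/- UT and at 8.58, 8.66 and 9.25 TPM in cGAS-/- LPS. Every LPS sample lay below every untreated sample. The log2 fold change was -1.64 (standard error, SE, 0.24, limma adjusted p = 7.36e-04) in WT and -2.08 (SE 0.24, limma adjusted p = 1.59e-04) in cGAS-/- cells, and the fall in WT missed the threshold when those 6 samples were fitted alone (adjusted p = 0.0542). The 3 cGAS-/- LPS samples lay below the 3 WT LPS samples by -0.50 on the log2 scale (95% interval -1.03 to 0.03, limma adjusted p = 0.289), which is within the spread of the fit. After TMM scaling the gap was -0.86 (limma adjusted p = 0.0308) and after quantile normalization -0.72 (limma adjusted p = 0.0275), so this call depends on the scaling.

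Zfp36 itself, the best studied of the ARE binders and a gene that LPS induces early, showed no change that passed. Zfp36 (chr7:28076209-28079710) was at 52.5, 50.9 and 51.5 TPM in WT UT and at 56.7, 96.9 and 28.4 TPM in WT LPS, so the WT LPS samples lay on both sides of the untreated ones. It was at 62.2, 62.1 and 57.2 TPM in cGAS-/- UT and at 45, 49.2 and 45.5 TPM in cGAS-/- LPS, where all 3 treated samples lay below all 3 untreated ones. The log2 fold changes with LPS were 0.06 (95% interval -0.73 to 0.85, limma adjusted p = 0.908) in WT and -0.37 (95% interval -1.16 to 0.42, limma adjusted p = 0.604) in cGAS-/- cells. The latter passed when the cGAS-/- samples were fitted alone (limma adjusted p = 0.00309) or samples were weighted by their spread (limma adjusted p = 0.00221), and with TMM scaling Zfp36 passed as higher in WT LPS than WT UT (0.75, limma adjusted p = 0.0111). The sign in WT LPS therefore rests on the scaling and on replicate 2, without which the log2 fold change was -0.36.

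The stem-loop endonucleases rose with LPS in cGAS-/- cells. Zc3h12a (chr4:125012216-125021711), which encodes Regnase-1, was at 12.5, 7.99 and 6.12 TPM in cGAS-/- UT and at 50.7, 44.9 and 44.5 TPM in cGAS-/- LPS. These groups did not overlap, with a log2 fold change of 2.32 (SE 0.39, limma adjusted p = 0.00220) that passed in each of the 24 other settings tried. In WT cells it was at 11.6, 12.1 and 10.7 TPM untreated and at 19.4, 39.8 and 11.1 TPM with LPS. One WT LPS sample lay within the untreated range and another came near the cGAS-/- LPS samples. The log2 fold change in WT was 0.79 (SE 0.39, limma adjusted p = 0.146), and it was 1.21 without WT LPS replicate 3 (limma adjusted p = 0.0125), 1.45 with TMM scaling (limma adjusted p = 0.00213) and 1.21 with quantile normalization (limma adjusted p = 0.0101).

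Zc3h12c (chr9:52020873-52080106), a relative with the same type of nuclease domain, moved with Zc3h12a. It was at 2.76, 2.66 and 3.07 TPM in cGAS-/- UT and at 11, 10.6 and 11.6 TPM in cGAS-/- LPS, with no overlap. The log2 fold change was 1.66 (SE 0.45, limma adjusted p = 0.0301), and the adjusted p was between 0.0523 and 0.0945 in 9 of 24 other settings, among them leaving out any 1 of these 6 samples. In WT cells Zc3h12c was at 2.63, 2.43 and 1.49 TPM untreated and at 4.18, 11.2 and 1.44 TPM with LPS, a range from the untreated values to those of cGAS-/- LPS. The log2 fold change in WT was 0.77 (SE 0.45, limma adjusted p = 0.208). It passed without WT LPS replicate 3 (1.34, limma adjusted p = 0.00773), with TMM scaling (1.26, limma adjusted p = 0.0175) and with quantile normalization (1.29, limma adjusted p = 0.0087).

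**Figure D2:**
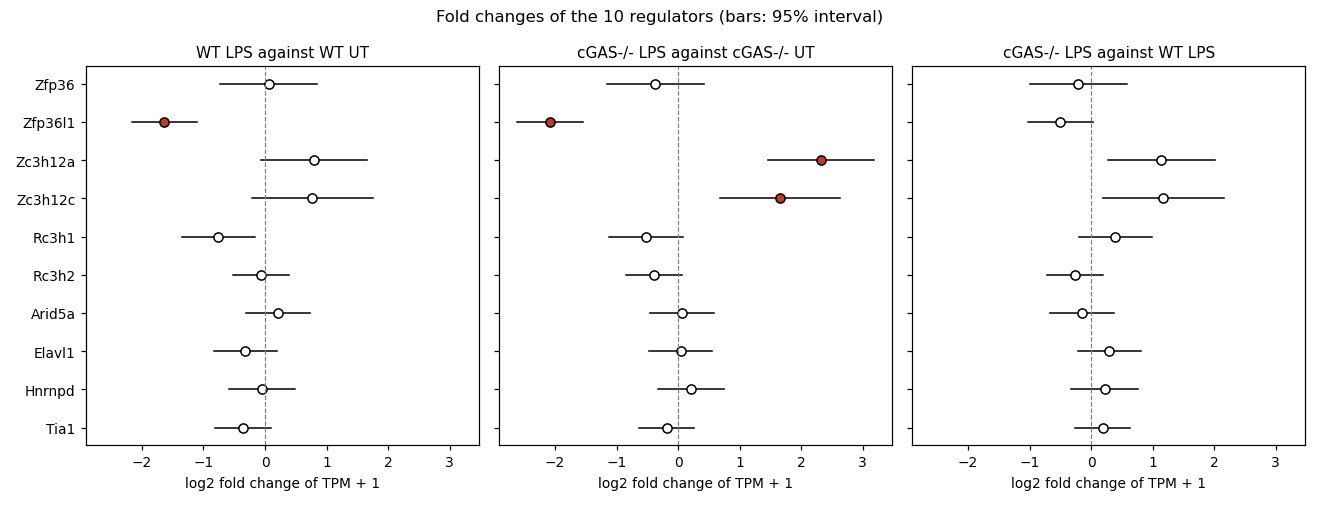
Log2 fold change of TPM + 1 (horizontal axis) of each regulator in 3 comparisons, with bars for the 95% interval from limma and filled points for an adjusted p under 0.05. Zfp36l1 lies below 0 in both LPS comparisons, Zc3h12a and Zc3h12c lie above 0 in cGAS-/- cells, and no regulator passed between genotypes with LPS.

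With LPS, the endonucleases were the regulators that stood highest in cGAS-/- against WT cells. All 3 cGAS-/- LPS values of Zc3h12a lay above all 3 WT LPS values, with a log2 fold change of 1.14 (95% interval 0.28 to 2.01, limma adjusted p = 0.171). For Zc3h12c WT LPS replicate 2 lay among the cGAS-/- LPS samples, with a log2 fold change of 1.17 (95% interval 0.19 to 2.15, limma adjusted p = 0.204). Neither passed, and the differences of the LPS effects, 1.53 (SE 0.56, limma adjusted p = 0.321) for Zc3h12a and 0.89 (SE 0.63, limma adjusted p = 0.631) for Zc3h12c, did not pass either. Without WT LPS replicate 2 the genotype difference was 1.60 for Zc3h12a (limma adjusted p = 0.00532), 1.76 for Zc3h12c (limma adjusted p = 0.00354) and 0.74 for Rc3h1 (limma adjusted p = 0.0101), and the differences of the LPS effects were 1.99 (limma adjusted p = 0.0175) and 1.48 (limma adjusted p = 0.0405) for the endonucleases. This 1 sample therefore decides those calls, and without it 3312 of the 11887 genes passed between genotypes with LPS and 1496 for the interaction, against 281 and 107 with it, so the regulators gained calls as all genes did. With TMM scaling Zc3h12a was at 25.2, 38.1 and 24.1 in WT LPS and at 54.2, 48.4 and 47.6 in cGAS-/- LPS, which brought WT LPS replicate 3 close to replicate 1.

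Because the WT LPS samples differ in their totals, ratios between 2 regulators within a sample were also formed, since a scaling factor cancels in them. The size of such a ratio has no meaning across genes, but its change between groups does not depend on scaling. The ratio of Zc3h12a to Zfp36 was 0.221, 0.238 and 0.207 in WT UT and 0.342, 0.411 and 0.391 in WT LPS. It was 0.201, 0.129 and 0.107 in cGAS-/- UT and 1.13, 0.914 and 0.977 in cGAS-/- LPS. The WT LPS samples, so far apart in level, were close in this ratio, though not in those of Zc3h12a to Elavl1 and Hnrnpd given below. All 3 lay below the cGAS-/- LPS samples, by 2.64-fold (log2 difference 1.40, SD 0.15 in cGAS-/- and 0.14 in WT, exact permutation test p = 0.1, two-sided, n = 3 per group). That p is the smallest that 3 samples against 3 allow, and 0.166 after adjustment over 48 such tests on 13 ratios, of which 29 reached it. The ratios were chosen after the values had been seen. Leaving out any 1 of the 6 samples gave a log2 difference between 1.31 and 1.47.

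**Figure D3:**
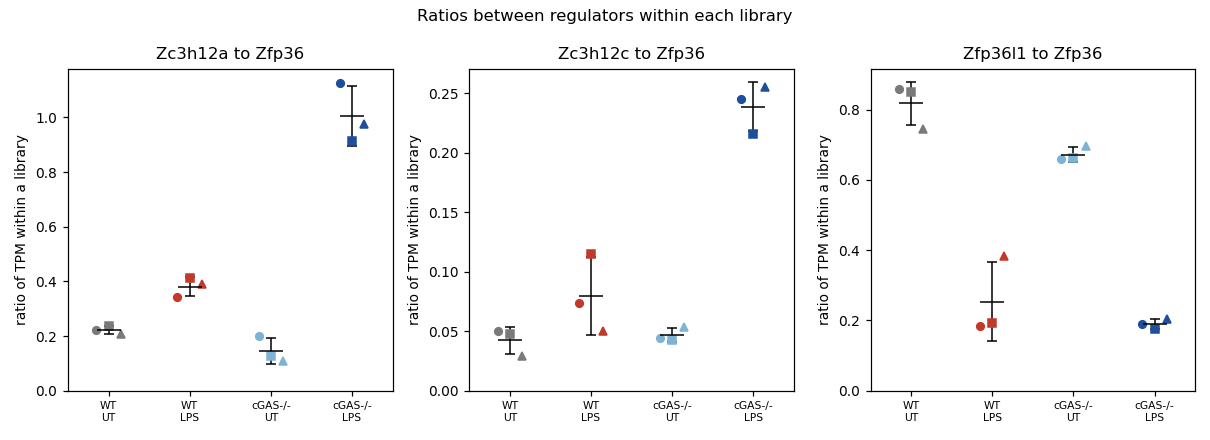
Ratio of TPM within each sample (vertical axis, no unit) for Zc3h12a to Zfp36, Zc3h12c to Zfp36 and Zfp36l1 to Zfp36, by group, with symbols for replicates 1 to 3 and bars for the mean ± SD of 3 samples. The cGAS-/- LPS samples lie above all WT LPS samples in the first pair of panels and overlap with them in the last.

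The ratio of Zc3h12c to Zfp36 was 0.0738, 0.115 and 0.0506 in WT LPS and 0.245, 0.216 and 0.255 in cGAS-/- LPS, a 3.15-fold difference without overlap (exact permutation test p = 0.1, two-sided, n = 3 per group). Against Elavl1 and Hnrnpd, a pair of RNA-binding proteins described below, Zc3h12a was also higher in all 3 cGAS-/- LPS than in all 3 WT LPS samples, by 1.82-fold and 1.94-fold (exact permutation test p = 0.1 for each, n = 3 per group). Against the same genes the Zc3h12c samples overlapped (exact permutation test p = 0.2 and p = 0.4, n = 3 per group). The ratio of Zfp36l1 to Zfp36 was 0.858, 0.849 and 0.746 in WT UT and 0.185, 0.192 and 0.382 in WT LPS. It was 0.659, 0.663 and 0.695 in cGAS-/- UT and 0.191, 0.176 and 0.204 in cGAS-/- LPS. Zfp36l1 thus lay lower against Zfp36 in every LPS sample than in every untreated one, while the genotypes overlapped with LPS (exact permutation test p = 0.6, two-sided, n = 3 per group). Against Elavl1 they did not overlap with LPS, with Zfp36l1 at 1.5, 1.45 and 0.953 in WT LPS and at 0.686, 0.727 and 0.681 in cGAS-/- LPS (log2 difference -0.87, exact permutation test p = 0.1, two-sided, n = 3 per group).

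The Roquin genes lay lower with LPS in cGAS-/- cells without passing. Rc3h1 (chr1:160733982-160802548) was at 3.21, 3.39 and 3.59 TPM in cGAS-/- UT and at 2.13, 1.95 and 2.13 TPM in cGAS-/- LPS, which do not overlap, a log2 fold change of -0.52 (95% interval -1.12 to 0.08, limma adjusted p = 0.272). In WT it was at 2.99, 3.4 and 2.51 TPM untreated and at 1.1, 2.79 and 0.606 TPM with LPS, a log2 fold change of -0.76 (limma adjusted p = 0.0584), which passed with WT LPS replicate 2 left out (-1.10, limma adjusted p = 6.10e-04), after rescaling to a common total (-0.90, limma adjusted p = 0.0429) and after rescaling to the protein-coding total (-0.82, limma adjusted p = 0.0167). The WT groups overlap through that sample. Rc3h2 (chr2:37258909-37313172) was at 1.27, 1.06 and 1.09 TPM in cGAS-/- UT and at 0.588, 0.672 and 0.63 TPM in cGAS-/- LPS, a log2 fold change of -0.39 (limma adjusted p = 0.274), and in WT at 1.14, 0.97 and 1.01 TPM untreated and at 0.399, 1.01 and 1.61 TPM with LPS. The treated WT samples of Rc3h2 lay on both sides of the untreated ones. Both Roquin genes passed as lower in cGAS-/- LPS when the cGAS-/- samples were fitted alone (limma adjusted p = 0.00266 and 0.0118).

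Arid5a (chr1:36346809-36363110), the stabiliser that is known to compete with Regnase-1 on Il6 mRNA, was at low levels throughout. It was at 0.635, 0.104 and 0.291 TPM in WT UT, at 0.727, 1.03 and 0.0329 in WT LPS, at 0.325, 0.249 and 0.408 in cGAS-/- UT and at 0.377, 0.327 and 0.463 in cGAS-/- LPS. All groups overlapped, and it passed the filter on low values only through 3 WT samples. The log2 fold changes were 0.21 with LPS in WT and 0.07 in cGAS-/- cells (limma adjusted p = 0.513 and 0.916). At these levels a change on the log2(TPM + 1) scale is compressed. With quantile normalization Arid5a passed as higher in WT LPS than in WT UT (0.60, limma adjusted p = 0.0245).

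Elavl1, Hnrnpd and Tia1, the general ARE-binding proteins, passed in no comparison of this fit. Elavl1 (chr8:4332576-4375489) was between 11.9 and 13.6 TPM in the 9 samples outside WT LPS, where it was at 7.02, 12.8 and 11.4 TPM. Its log2 fold change with LPS was 0.05 in cGAS-/- cells (95% interval -0.46 to 0.55, limma adjusted p = 0.944). Hnrnpd (chr5:100103794-100127029) was at 19.7, 21.1 and 21 TPM in cGAS-/- UT and at 22.6, 24.1 and 25.2 TPM in cGAS-/- LPS, with all treated samples above all untreated ones, by 0.21 on the log2 scale (95% interval -0.33 to 0.75, limma adjusted p = 0.681). With the cGAS-/- samples fitted alone the limma adjusted p was 0.0287, in a fit where 5305 of the tested genes passed. In WT Hnrnpd was at 20.7, 22.2 and 20.7 TPM untreated and at 26.7, 22.6 and 14 TPM with LPS, where TMM scaling turned its log2 fold change from -0.05 to 0.62 (limma adjusted p = 0.034). Tia1 (chr6:86381127-86410387) was at 1.23, 0.734 and 0.84 TPM in WT UT, 0.793, 0.716 and 0.0965 in WT LPS, 0.906, 0.77 and 1.17 in cGAS-/- UT and 0.779, 0.626 and 0.716 in cGAS-/- LPS, overlapping in every comparison. Shares of 0% to 9.06% of the canonical transcripts of the 10 genes matched transcripts of other genes over at least 50 bases at 95% identity, most for Hnrnpd and Tia1, and reads there could have been split by the quantification.

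In untreated cells no regulator passed between genotypes. Zfp36 was higher in all 3 cGAS-/- UT than in all 3 WT UT samples (values above), a log2 fold change of 0.22 (95% interval -0.56 to 1.01, limma adjusted p = 1). It passed only when those 6 samples were fitted alone (limma adjusted p = 0.0403), where 1241 of the tested genes passed. Zc3h12c was also higher in all 3 cGAS-/- UT samples, by 0.28 on the log2 scale (95% interval -0.70 to 1.27, limma adjusted p = 1). The log2 fold changes of the other 8 lay between -0.39 (Zc3h12a) and 0.15 (Rc3h1), with overlapping samples.

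Il6 (chr5:30218112-30224979), the cytokine mRNA set beside these regulators, was at 0.134, 0.0458 and 0.104 TPM in WT UT and at 1.07, 0.772 and 0.559 TPM in WT LPS. In cGAS-/- cells it was at 0, 0.101 and 0.0682 TPM untreated and at 14.8, 12.5 and 15.5 TPM with LPS. The LPS samples lay above the untreated ones in both genotypes, and the cGAS-/- LPS samples far above the WT LPS ones. The log2 fold change with LPS was 0.71 in WT (limma adjusted p = 0.00989) and 3.85 in cGAS-/- cells (limma adjusted p = 1.87e-07), and between genotypes with LPS it was 3.09 (limma adjusted p = 4.24e-06). With the compared samples fitted alone the adjusted p was 0.0681 in WT and 0.0539 between genotypes, and with a pseudocount of 5 the log2 fold change in WT was 0.19 (limma adjusted p = 0.0929). Il6 reached the minimum of the filter on low values in 5 samples, 3 of cGAS-/- LPS and 2 of WT LPS, so it was tested only because it is high in cGAS-/- LPS and its differences there were built into its selection. Relative to Zc3h12a, Il6 was at 0.0552, 0.0194 and 0.0505 in WT LPS and at 0.292, 0.278 and 0.348 in cGAS-/- LPS, an 8.05-fold difference without overlap (exact permutation test p = 0.1, two-sided, n = 3 per group). Relative to Zfp36 the difference was 21.2-fold (exact permutation test p = 0.1, n = 3 per group). The samples in which Il6 stood highest were thus also those in which Zc3h12a stood highest. These are mRNA levels. The study also measured secreted IL-6 protein in macrophage supernatants, which is not analysed here, and rates of mRNA decay are not analysed here either.

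**Figure D4:**
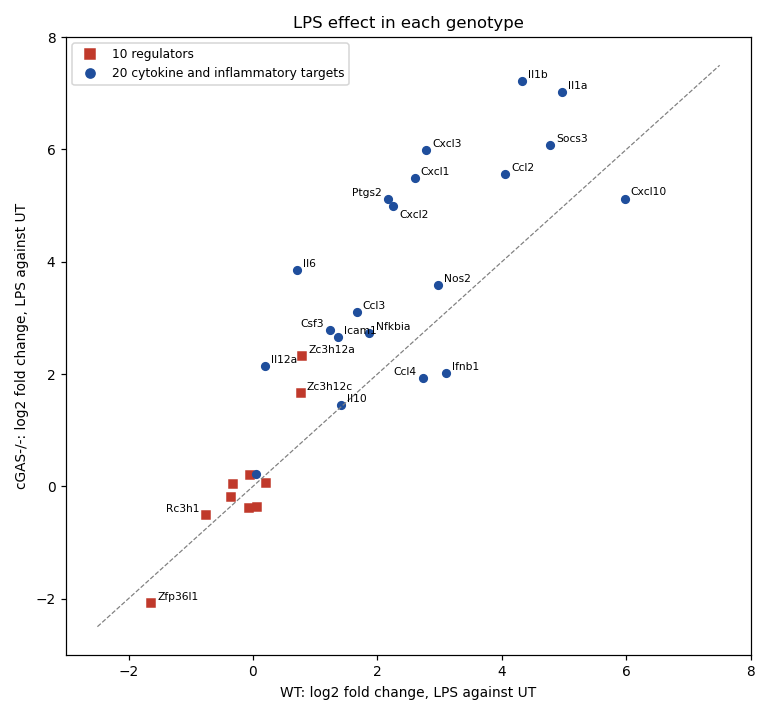
Log2 fold change with LPS in WT (horizontal axis) against that in cGAS-/- cells (vertical axis) for the 10 regulators (squares) and 20 cytokine and inflammatory targets (circles), with a dashed line of equal effects. Most targets lie at high values on both axes, and of the regulators Zc3h12a and Zc3h12c lie highest on the vertical axis. The unlabelled squares near the origin are Zfp36, Rc3h2, Arid5a, Elavl1, Hnrnpd and Tia1, and the unlabelled circle is Plaur.

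Most target mRNAs of these proteins passed with LPS. Of 26 cytokine and inflammatory genes with known AREs or stem-loops, 20 were tested. With LPS 18 rose and 0 fell in WT (median log2 fold change 2.43, against -0.46 over all tested genes, of which 27.6% passed), and 17 rose and 0 fell in cGAS-/- cells (median 3.72, against -0.20 over all tested genes, of which 13.8% passed). Il6, Il12a, Csf3, Nos2 and Ifnb1 reached the filter on low values only with the LPS samples, so their rise was built into their selection. Of the other 15 targets 14 rose in WT (median 2.60) and 12 in cGAS-/- cells (median 5.12), and 0 fell in either. Between genotypes with LPS 8 were higher and 2 lower in cGAS-/- cells, with a median log2 fold change of 1.29 against 0.20 over all tested genes. Il6, Il12a and Csf3 reached the filter on low values only with the cGAS-/- LPS samples, and of the other 17 targets 6 were higher and 2 lower (median 0.86). Where 2.36% of all genes passed, the higher ones included Il12a, which encodes an interleukin-12 subunit (1.95, limma adjusted p = 1.90e-04), and Il1a, which encodes interleukin-1 alpha (1.99, limma adjusted p = 0.00508), and the lower ones were the interferon-stimulated chemokine Cxcl10 (-1.43, limma adjusted p = 0.00582) and Ifnb1 (-1.20, limma adjusted p = 0.00597), the latter named after its value had been seen. Il12a was at 4.32, 3.7 and 2.72 TPM in cGAS-/- LPS and at 0 to 0.293 TPM elsewhere, so its difference there was built into its selection. In untreated cells, where 1.83% of all genes passed, 1 of the 20 passed, the chemokine Ccl2, which was lower in cGAS-/- cells (-3.02, limma adjusted p = 0.00414). Tnf, Nfkbiz and Ier3 are not analysed here.

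Other RNA-binding regulators of the same kind were followed as a list of 19, of which 15 were tested. With LPS 1 rose and 3 fell in WT, and 1 rose and 1 fell in cGAS-/- cells, shares close to the 27.6% and 13.8% of all tested genes that passed. N4bp1, which encodes an endonuclease with a domain like that of Regnase-1, was the one that rose in both. It was at 6.64, 6.38 and 5.91 TPM in WT UT and at 16, 33.7 and 9.26 TPM in WT LPS, and at 4.82, 4.7 and 5.11 TPM in cGAS-/- UT and 33.8, 31.6 and 31.9 TPM in cGAS-/- LPS. All LPS samples lay above all untreated samples, with log2 fold changes of 1.32 in WT (limma adjusted p = 0.0197) and 2.51 in cGAS-/- cells (limma adjusted p = 6.70e-04). Zc3h12d, another relative of Regnase-1, was at 26.1, 29.4 and 27.4 TPM in cGAS-/- UT and at 12.8, 11.7 and 12.5 TPM in cGAS-/- LPS, and fell by 1.10 on the log2 scale (limma adjusted p = 0.0301). Tial1, the paralog of Tia1 (-1.18, limma adjusted p = 0.0144), Ptbp1, which binds pyrimidine tracts (-0.97, limma adjusted p = 0.0161), and the cold shock protein gene Ybx1 (-1.55, limma adjusted p = 0.0376) fell with LPS in WT. Zfp36l2 and Khsrp are not analysed here.

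The genes of the machinery that these proteins recruit were also followed, where 27.6% of all tested genes passed with LPS in WT, 13.8% with LPS in cGAS-/- cells and 2.36% between genotypes with LPS. Of 18 genes of deadenylation 16 were tested, and with LPS 0 rose and 2 fell in WT cells, which were Tob1, an adaptor of the deadenylase complex (-1.20, limma adjusted p = 0.0213), and Pan2, a deadenylase subunit (-0.54, limma adjusted p = 0.0436), while none passed in cGAS-/- cells. The fall of Pan2 was close to the median of all tested genes with LPS in WT (-0.46). Its levels were low, at 0.434, 0.769 and 0.108 TPM in WT LPS. Of 18 genes of decapping and degradation 12 were tested, and 0 passed in any comparison. Of 15 kinases, phosphatases and adaptors that control ARE-binding proteins 10 were tested. Mapkapk2, the kinase that phosphorylates Zfp36, was at 59.8, 62.5 and 54.5 TPM in cGAS-/- UT and at 138, 135 and 124 TPM in cGAS-/- LPS, and rose by a log2 fold change of 1.15 (limma adjusted p = 0.0236). In WT it was at 56.1, 58.3 and 59.4 TPM untreated and at 58.3, 100 and 40.7 TPM with LPS, so the WT LPS samples lay on both sides of the untreated ones, and the genotypes with LPS differed by 1.08 (limma adjusted p = 0.101). Ywhah, which encodes a member of the adaptor family that binds phosphorylated Zfp36, fell in WT (-2.01, limma adjusted p = 0.0348). In cGAS-/- cells it was at 319, 285 and 316 TPM untreated and at 100, 99.3 and 105 TPM with LPS, a log2 fold change of -1.58 without overlap that did not pass (limma adjusted p = 0.132).

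Genes with the pattern most like that of 3 regulators were sought over the 12 samples, by the root mean square difference of log2(TPM + 1) after each gene's own mean was removed. The nearest to Zfp36 were Rin2 (0.10), Pogz (0.12) and Lrp11 (0.14). The nearest to Zc3h12a were Antxr1 (0.20), Vasp (0.25) and Tnip1 (0.25), and those to Arid5a were Inpp5j (0.13), Ppig (0.14) and Rala (0.14). The likeness includes what the samples share, such as the spread of the WT LPS samples. The neighbours of Arid5a ranged in level from 0.0981 to 1.01 TPM (Inpp5j), from 3.27 to 9.77 TPM (Ppig) and from 31.8 to 59.4 TPM (Rala).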

How the data were processed

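RNA-seq of 12 samples was analysed from 1 table that the authors deposited. According to the labels and methods, reads were trimmed with fastp, mapped to GRCm39 with STAR and quantified with kallisto, with versions not given in the sources used here, and the study compared groups with edgeR and limma. The deposited values were read as TPM, the mean over the transcripts of a symbol. The files do not show the depth, and counting error is therefore not quantified. The table stops on chromosome 13, and genes beyond it are not analysed here.

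Genes at 1 or more, after rescaling each sample to a total of 1000000, in at least 3 of 12 samples were kept. Values were taken as log2(TPM + 1), a scale on which changes of low genes are understated, and fitted with limma 3.58.1 (R 4.3.3), with a mean per group over all samples and a variance trend. The groups, taken from the titles, were compared as cGAS-/- against WT and LPS against UT, with an interaction. Ratios within samples were compared by exact permutation tests. Elements were searched in GENCODE vM39 canonical 3′UTRs, and similar transcripts with blastn 2.17.0. The named genes are the 10 regulators, Il6, Cgas, at most 4 genes of each other list with the smallest p in a comparison, and 3 neighbours of 3 regulators. The genes and lists were chosen with earlier results of these data known. The fit was tested on simulated data. As alternatives, pseudocounts (0.1 and 5), the filter (none, or at 5), the scaling (TMM factors, quantile normalization, a common total, the protein-coding total), the fit (only the samples compared, replicate numbers as a block, without trend, with sample weights), a log2 fold change beyond 2 and leaving out each sample were tried.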

Additional observations from a re-analysis of the deposited data

Results flagged for a closer look

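For 3 of the target mRNAs the effect of LPS differed between the genotypes by the interaction term of the limma fit, which 0.9% of all tested genes passed. The difference of the log2 fold changes was 3.14 for Il6 (standard error 0.23, limma adjusted p = 2.88e-04), 1.96 for Il12a (standard error 0.24, limma adjusted p = 0.00330) and 2.05 for Il1a (standard error 0.40, limma adjusted p = 0.0438), each larger in cGAS-/- cells. Il6 and Il12a reached the filter on low values only with the 3 cGAS-/- LPS samples, in which they are high, so their differences are no independent results. None of the 10 regulators was among the genes that passed, and the largest difference among them was that of Zc3h12a at 1.53 (limma adjusted p = 0.321).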

How the results depend on the processing

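The fall of Zfp36l1 and the rise of Zc3h12a with LPS in cGAS-/- cells passed in all 24 other settings, and Zc3h12c passed in 15 of 24. The number of regulators that passed moved as follows, with the number of all 11887 genes that passed in brackets. Between genotypes in untreated cells it went from 0 (218) to 1 (1241) with the samples compared alone. Between genotypes with LPS it went from 0 (281) to 1 (492) with TMM factors, to 1 (552) with quantile normalization and to between 0 and 3 when 1 sample was left out, with 3 (3312) without WT LPS replicate 2. With LPS in WT it went from 1 (3286) to 5 (2375) with TMM factors, 4 (2445) with quantile normalization, 2 (3873) after rescaling to a common total, 2 (4737) after rescaling to the protein-coding total, 0 (716) with the samples compared alone, 0 (514) with a log2 fold change beyond 2 as well, and to between 1 and 3 when 1 sample was left out, with 2 (5785) without the second WT LPS sample and 3 (4130) without the third. With LPS in cGAS-/- cells it went from 3 (1643) to 7 (5305) with the samples compared alone and to 7 (5746) with sample weights, and to between 2 and 4 when 1 sample was left out. It was 2 with a pseudocount of 0.1, without a filter and with a common total, each time through the loss of Zc3h12c (limma adjusted p = 0.0523, 0.0732 and 0.0631), 2 with a log2 fold change beyond 2 as well, and 4 with the protein-coding total, which added Rc3h1 (limma adjusted p = 0.0444). For the interaction it went from 0 (107) to 2 (1496) without WT LPS replicate 2 and was 0 without any other sample. The cause of these moves was not tested.

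The replicate numbers do not pair the samples (correlations of deviations between -0.0315 and 0.0383 over the pairs, with 5 of the 12 samples closest to their own number). With the replicate block the numbers of regulators that passed were the same as without it in all 5 comparisons, 0, 0, 1, 3 and 0, and of all genes 170, 179, 2955, 1414 and 54 passed, in the order of the list above.

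Values that changed sign were these, as log2 fold changes. Between genotypes in untreated cells, Arid5a was 0.12 with a pseudocount of 0.1, 0.01 with TMM, 0.09 with quantile normalization, 0.01 with the protein-coding total, 0.02 with sample weights and 0 to 0.15 with 1 sample left out (0.15, 0 and 0.04). With quantile normalization Zfp36l1 was 0.03, Hnrnpd 0.02 and Il6 0.04, with the protein-coding total Hnrnpd was 0, and Tia1 was -0.02 with a common total and -0.06, -0.02 and -0.07 with 1 sample left out. Between genotypes with LPS, TMM gave -0.05 for Elavl1 and -0.14 for Hnrnpd, sample weights 0.01 for Rc3h2, -0.03 for Hnrnpd and -0.01 for Tia1, and leaving out 1 sample gave -0.66 to 0.21 for Zfp36 and -0.43 to 0.06 for Arid5a (higher without WT LPS replicate 2), and -0.04 to 0.41 for Hnrnpd and -0.04 to 0.31 for Tia1 (lower without WT LPS replicate 3). With LPS in WT, TMM gave 0.33 for Rc3h2, 0.33 for Elavl1 and 0.62 for Hnrnpd (limma adjusted p = 0.034), quantile normalization 0.47, 0.11 and 0.27 for these genes and 0.09 for Tia1, a common total -0.22 for Zfp36, and sample weights 0.19 for Hnrnpd. Leaving out 1 WT LPS sample gave -0.36 to 0.51 for Zfp36 (lower without replicate 2), -0.28 to 0.17 for Rc3h2 (higher without replicate 1) and -0.24 to 0.20 for Hnrnpd (higher without replicate 3). With LPS in cGAS-/- cells, the protein-coding total gave -0.01 for Arid5a, -0.23 for Elavl1 and -0.07 for Hnrnpd, a common total -0.03 for Elavl1, quantile normalization 0.01 for Tia1, and leaving out cGAS-/- LPS replicate 3 gave 0 for Elavl1. For the interaction, quantile normalization gave -0.04 for Rc3h1 and -0.08 for Tia1, TMM -0.02 for Elavl1 and -0.13 for Hnrnpd, sample weights -0.02 for Tia1, and leaving out 1 WT LPS sample -0.03 to 0.59 for Rc3h1 and -0.05 to 0.30 for Tia1 (lower without replicate 3) and -0.43 to 0.06 for Arid5a (higher without replicate 2). Of these values Hnrnpd with TMM was past the threshold, and the main value of none was.

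Depth is unknown, so low values such as those of Arid5a, Tia1 and Rc3h2 carry an unknown counting error. The ratio differences between genotypes with LPS stayed between 1.31 and 1.47 for Zc3h12a and between 1.37 and 1.96 for Zc3h12c against Zfp36 when 1 sample was left out, and were 1.35 and 1.38 with a pseudocount of 1.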
